A study of Caenorhabditis elegans with 7 samples.

Results

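Neurons release transmitter when a synaptic vesicle docks at the plasma membrane and SNARE proteins of the 2 membranes wind into a bundle that fuses them. Syntaxin and SNAP-25 are the SNAREs of the plasma membrane, the UNC-18 protein binds syntaxin and is needed for fusion, and the ATPase NSF takes used SNARE bundles apart so that they can act again. CAPS is a related priming factor best known for dense core vesicles, which carry neuropeptides. In Caenorhabditis elegans these proteins are encoded by unc-64 (syntaxin), ric-4 (SNAP-25), unc-18, nsf-1 (NSF) and unc-31 (CAPS). The DD neurons examined here belong to the GABAergic motor neurons of the worm's ventral nerve cord, and their release onto body wall muscle relaxes it.

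The 5 genes were taken by name from a table of 236 probe sets that the authors deposited as higher in DD neurons, in which 222 probe sets carry a gene name, for 201 genes. All 5 genes were found, each with 1 named probe set, out of 22548 probe sets measured after 77 array controls were left out. Of the 5 genes, 2 encode SNAREs (unc-64 and ric-4), and the products of the other 3 act on SNAREs or prime vesicles. The genes were thus chosen by the difference between the group means on these same arrays, together with a score that sets it against the spread. The direction of every difference below was fixed by that choice, and the differences of the 5 genes are described without a test. Probe sets of these genes outside the deposited table could not be named here. No sequence of the genes or probes was used here.

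Affymetrix arrays had been hybridised with RNA of 4 samples of DD neurons and 3 samples of all cells, all from first-stage (L1) larvae that hatched overnight without food and were arrested in growth. The DD samples came from strain CZ8332, which carries the integrated transgene juIs223 on chromosome IV with pttr-39::mcherry and pttx-3::GFP. The cells had been sorted by flow cytometry for the mCherry reporter, per the series design, although a label of the same samples names GFP. By the design text, the cells called DD neurons here are those in which the ttr-39 promoter drove the reporter. The all-cell samples came from the N2 strain and hold RNA of the whole larva, DD neurons and all other neurons included, so strain, sort and cell type changed together and cannot be told apart. All RNA was amplified with a NuGEN kit for small inputs, and the labels do not tell if replicates were grown as separate cultures.

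The arrays were close in overall level, though medians (log2) were 5.21 to 5.30 in DD neurons and somewhat higher, 5.33 to 5.38, in all cells. Correlations across probe sets were 0.936 to 0.971 between the groups. All 6 listed genes of the D-type GABAergic identity were named in the same table and were higher in DD neurons, by 2.51 to 3.48 on the log2 scale. Names came only from that table, so no named gene could have come out lower, and these values describe the label without checking it. Of the 6, unc-25, whose product makes GABA, was at 11.29 ± 0.30 in DD neurons (SD, n = 4) and 8.23 ± 0.29 in all cells (SD, n = 3). For unc-47, the vesicular GABA transporter gene, the levels were 7.20 ± 0.20 in DD neurons and 4.67 ± 0.41 in all cells. That all-cell mean lay below the median of each all-cell array, so the size of the unc-47 difference is not exact. The gene unc-30, for the homeodomain factor of the D-type fate, was at 10.05 ± 0.45 in DD neurons and 6.83 ± 0.47 in all cells, and ttr-39 was at 11.42 ± 0.27 in DD neurons and 7.94 ± 0.47 in all cells. By the design text, the promoter of ttr-39 also drove the reporter used for the sort. Of 25 markers listed for other cell types, 5 could be named, all from the same table of higher probe sets. They were 1 each for body wall muscle, intestine, epidermis, pharynx and germ line. Their summed level ran from 10.73 to 11.07 (log2) in DD neurons and from 9.59 to 9.76 in all cells. The largest term was pqn-44, the 1 named of 3 genes listed under pharynx, with means of 10.19 in DD neurons and 8.96 in all cells. Whether this gene is particular to the pharynx was not checked here, so its value is not a measure of pharynx RNA. Each probe set has its own response, so the sum does not measure an amount of cells. For the intestine and germ line markers the groups overlapped. The part of other cell types in the values of the SNARE fusion genes was not tested, and the other 20 markers could not be named.

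The syntaxin gene unc-64 read 11.37, 10.86, 11.41 and 11.29 on the arrays of DD neurons 1 to 4, against 10.24, 10.09 and 10.36 on those of all cells 1 to 3 (RMA values, log2). The groups did not overlap, and DD replicate 2 was the low one among the DD arrays. The mean was 11.23 ± 0.26 in DD neurons and 10.23 ± 0.14 in all cells, a difference of 1.00 ± 0.16 (log2, SE), or 2.01-fold. In RNA of whole samples, fewer cells that express a gene and less of its RNA per cell cannot be told apart.

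The other SNARE gene, ric-4, read 10.72, 11.11, 11.04 and 11.27 in DD neurons, against 10.18, 9.61 and 10.29 in all cells. Its lowest DD array, replicate 1, lay 0.43 above its highest all-cell array, and all cells replicate 2 stood below the others of its group. Means of 11.04 ± 0.23 in DD neurons and 10.03 ± 0.36 in all cells gave a difference of 1.01 ± 0.22, or 2.01-fold. SNAP-25 and syntaxin together form the plasma membrane side of the SNARE bundle. The gap between their differences was 0.01 ± 0.26 (log2, SE), an error wide enough to hold unequal changes.

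The gene unc-18, whose product holds syntaxin and escorts it to the release site, read 10.06, 10.13, 10.00 and 10.43 in DD neurons, against 8.94, 8.98 and 9.51 in all cells. DD replicate 4 and all cells replicate 3 were the high arrays of their groups, and the groups stayed apart by 0.48. The mean was 10.16 ± 0.19 in DD neurons and 9.15 ± 0.32 in all cells, a difference of 1.01 ± 0.19, or 2.01-fold.

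The NSF gene nsf-1 had the largest difference of the 5 genes. It read 8.58, 8.97, 9.05 and 9.05 in DD neurons, against 7.63, 7.27 and 7.66 in all cells. Its groups were also the farthest apart, by 0.92 between DD replicate 1, the lowest DD array, and all cells replicate 3. The mean was 8.91 ± 0.22 in DD neurons and 7.52 ± 0.22 in all cells, a difference of 1.39 ± 0.17, or 2.63-fold.

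The CAPS gene unc-31 read 6.71, 7.18, 7.03 and 6.50 in DD neurons, against 6.24, 5.53 and 5.68 in all cells. Here the groups came closest, with 0.25 between DD replicate 4 and all cells replicate 1. The mean was 6.86 ± 0.31 in DD neurons and 5.82 ± 0.38 in all cells, a difference of 1.04 ± 0.26, or 2.05-fold, with the widest error of the 5 genes.

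**Figure D1:**
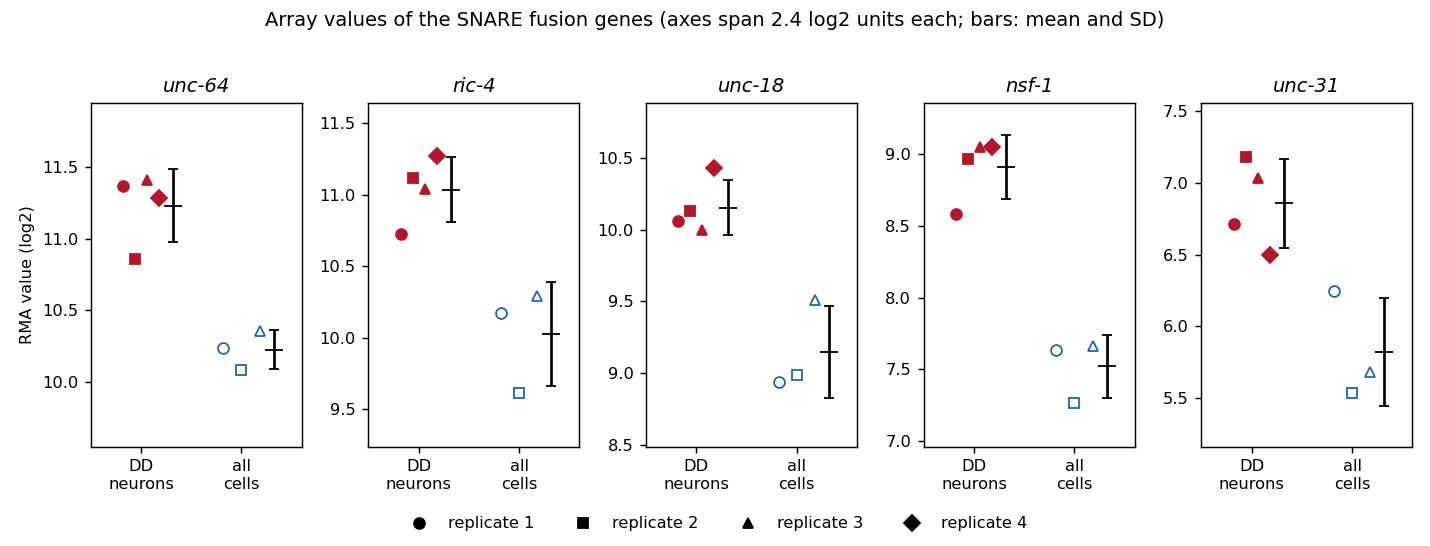
RMA values (log2) of the 5 genes on each array, with DD neurons as filled red symbols and all cells as open blue symbols, the symbol shape giving the replicate number and the black bars the mean and SD (n = 4 and n = 3). In each panel all 4 DD arrays lie above the 3 all-cell arrays, by 0.92 for nsf-1 and by 0.25 for unc-31. Heights should not be compared between panels, since each probe set has its own response.

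In each of the 5 genes the lowest DD array was above the highest all-cell array. Over the whole array 6.98% of probe sets were separated in this direction, but the choice of the genes from the authors' list had used these values, so the count is a description. Of the 5 genes 1, nsf-1, also passed the threshold of the limma fit (adjusted p under 0.05 over all probe sets), where 0.191% of probe sets passed with DD neurons higher. That pass was lost whichever of the 7 arrays was left out, and it was lost when the arrays were scaled to their controls. The other 4 genes did not pass over all probe sets.

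Of the 5 genes 4 sat at the lower limit of the authors' list. In all, 1.55% of the probe sets differed by 2-fold or more between the group means with DD neurons higher, and the smallest log2 difference on the deposited list was 1.0005. The differences of unc-64 (1.0042), ric-4 (1.0095), unc-18 (1.0103) and unc-31 (1.0368) lay just inside. The list held 55 probe sets with a difference between 1.0 and 1.1 and none between 0.9 and 1.0, where 132 probe sets lay, 73 of them with groups that did not overlap. The nearest of these 73 had a difference of 0.9996, and none has a gene name here. With errors of 0.16 to 0.26 on each difference, the distance of these 4 genes from the limit was smaller than the spread between arrays. The median of the 5 genes, 1.01, stood beside 0.06 for all tested probe sets and 1.26 for the other 196 named genes.

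In the order of their differences nsf-1 came first, followed by unc-31, unc-18, ric-4 and unc-64. The last 4 spanned 0.03, so neighbours among them did not differ beyond their errors. On each array the value of nsf-1 was also set against the mean of the other 4 genes, which removes any shift the genes share. The difference of nsf-1 exceeded that of the other 4 by 0.38 ± 0.09 (log2, SE). Taken one gene at a time the excess was 0.36 ± 0.25 over unc-31, 0.38 ± 0.20 over unc-18, 0.39 ± 0.23 over unc-64 and 0.38 ± 0.09 over ric-4. The excess over ric-4 was the one most exact for its size, and nsf-1 minus ric-4 ran from -2.22 to -1.98 in DD neurons and from -2.63 to -2.34 in all cells. These ranges did not overlap, and only their shift between groups can be read, since each probe set has its own response. The comparison uses the contrast that chose the genes, so it is given without a test.

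Within a group the 5 genes varied alike in some pairs and less so in others. The deviations of each array from its group mean do not use the difference between groups. Over the 7 arrays their correlations between genes ran from -0.51 to 0.92, with a median of 0.23 over 10 pairs, of which 8 were positive. Since the group means were removed, the 7 deviations of a gene hold fewer than 7 independent points. Each r is imprecise, so it cannot be told if the genes vary together or apart. The closest pair was nsf-1 and ric-4 (r = 0.92), both low on DD replicate 1 (-0.33 for nsf-1 and -0.31 for ric-4) and on all cells replicate 2 (-0.25 for nsf-1 and -0.41 for ric-4). Next came unc-18 with ric-4 (r = 0.61) and with nsf-1 (r = 0.41). The syntaxin gene unc-64 had r of 0.09 with nsf-1, 0.11 with ric-4, 0.19 with unc-18 and -0.29 with unc-31. The lowest r belonged to unc-31 and unc-18 (-0.51). All points come from the same 7 arrays and share their normalization.

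**Figure D2:**
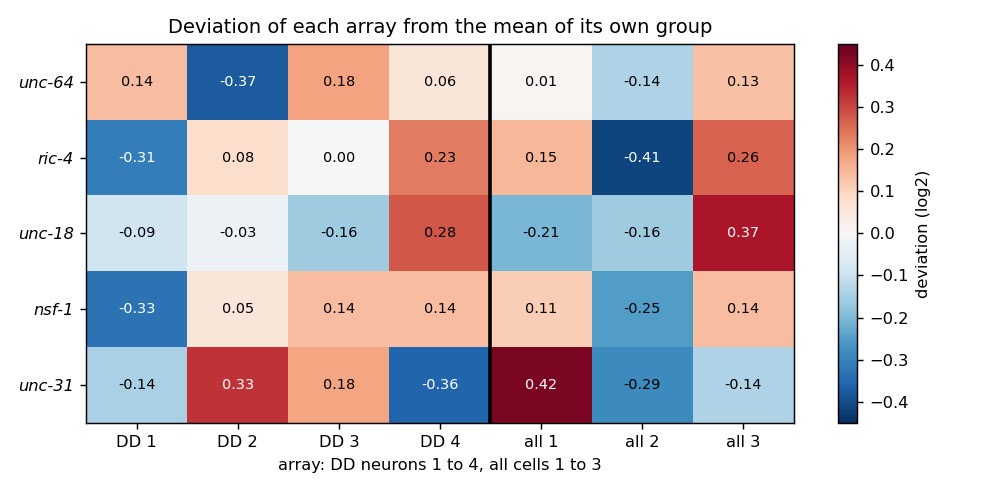
Deviation of each array from the mean of its own group (log2, colour and printed value) for the 5 genes in rows and the 7 arrays in columns, with DD neurons left of the black line and all cells right of it. The column of all cells replicate 2 is below the group mean in all 5 genes, from -0.41 for ric-4 to -0.14 for unc-64, and DD replicate 1 is below it in all but unc-64.

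Array by array, the mean of the 5 genes was 9.49, 9.65, 9.71 and 9.71 (log2) in DD neurons, against 8.65, 8.30 and 8.70 in all cells. All cells replicate 2 was low in 5 of the 5 genes. Without it the differences were 0.80 for ric-4, 0.89 for unc-31, 0.93 for both unc-64 and unc-18 and 1.27 for nsf-1, so 4 of the 5 genes stood under 2-fold. The other way, leaving out DD replicate 1 brought nsf-1 to 1.50, and leaving out all cells replicate 1 brought unc-31 to 1.25. With groups apart in all 5 genes, none could change direction when any 1 array was left out.

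The height of the differences depended on what was taken as equal between the groups. The 77 array controls had a mean difference of 0.36 (log2, DD neurons minus all cells), although the median of the tested probe sets was 0.06. Among them, the 50 controls for bacterial, phage and yeast sequences had a median difference of 0.26. Controls for worm genes differed among themselves, with 0.67 ± 0.20 (SE) for the 3′ probe set of actin, 0.22 ± 0.08 for that of Gapdh, 0.09 ± 0.24 for that of ubiquitin and -0.87 ± 0.45 for that of catalase. Centred on all controls, the differences were 1.04 for nsf-1, 0.68 for unc-31 and 0.65 for each of unc-18, ric-4 and unc-64, while the median of all tested probe sets moved to -0.30. Relative to that median the 5 differences are as before. The 5′ probe set minus the 3′ probe set, a sign of RNA length, differed between DD neurons and all cells by 0.01 ± 0.07 for actin, 0.20 ± 0.17 for Gapdh, 0.34 ± 0.17 for ubiquitin and 2.05 ± 0.59 for catalase. Its part in the values of the SNARE fusion genes was not tested.

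**Figure D3:**
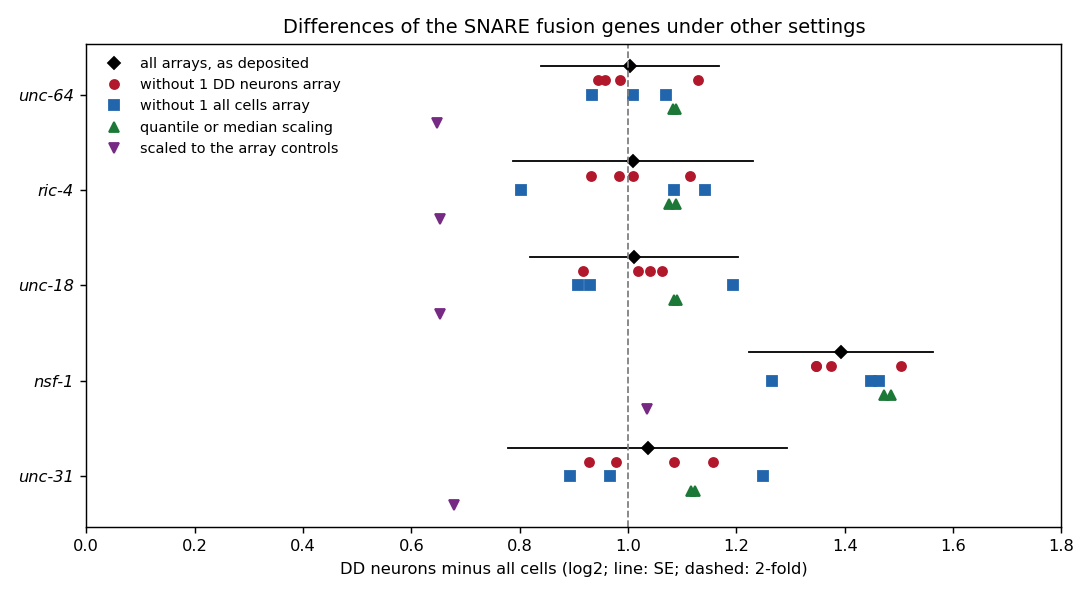
Difference between DD neurons and all cells (log2) for the 5 genes with all arrays and the values as deposited (black diamond with SE), without 1 DD array (red), without 1 all-cell array (blue), with quantile or median scaling (green) and scaled to the array controls (purple). Every point is above 0, and those scaled to the controls are the lowest of each gene, at 1.04 for nsf-1 and 0.65 to 0.68 for the others.

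On every array all 5 genes lay above each of the 50 controls for bacterial, phage and yeast sequences, whose highest value was 5.85 in DD neurons and 5.08 in all cells. The nearest was unc-31, which read 5.53 to 6.24 in all cells. Ranked among all tested probe sets of the same array, unc-64 was at the 97.6th to 98.5th percentile in DD neurons and at the 95.4th to 96.4th in all cells. For ric-4 the percentiles were 97.5 to 98.3 in DD neurons and 93.6 to 96.3 in all cells, and for unc-18 they were 95.6 to 96.6 in DD neurons and 90.2 to 93.7 in all cells. The gene nsf-1 was at 89.4 to 91.7 in DD neurons and 74.7 to 80.2 in all cells. The gene unc-31 was at 66.9 to 75.1 in DD neurons and 52.7 to 63.0 in all cells. Ranks are free of the scale of an array. For each gene those of the 2 groups did not overlap, but the choice of the genes had used the values behind these ranks. The share of all probe sets with ranks apart is not given here, so this is a description. As with the values, ranks are to be compared between groups and not between genes. The probe sets of unc-64, ric-4 and nsf-1 carry the suffix that marks a match to several transcripts, so isoforms or related transcripts may be summed in them.

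Other genes of the release pathway gave a frame for these values. Of 86 listed genes of fusion, other SNAREs, dense core vesicles, the active zone and vesicle recycling, 17 could be named, the 5 SNARE fusion genes among them. In the fusion list 4 of 16 were named (unc-64, ric-4, unc-18 and nsf-1), and in the list of other SNAREs 0 of 32. Synaptobrevin (snb-1), the SNARE of the vesicle itself, was not among the named genes, nor were the priming factor unc-13, complexin (cpx-1), synaptotagmin (snt-1) or the NSF adaptor snap-1. Their probe sets could not be picked out here, so they were not analysed. Of 15 genes of dense core vesicles, unc-31 was the named one.

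By limma over all probe sets, 4 of the 17 named genes passed with DD neurons higher, beside 38 of all 201 named genes and 0.191% of all probe sets. Without any 1 array, unc-10 was the 1 gene of the 17 still called. Besides nsf-1 the 4 were unc-10, which encodes the active zone protein RIM, dyn-1, the dynamin that pinches vesicles off in recycling, and sad-1, a kinase of presynaptic assembly. All 17 had been selected as higher, so no list is tested. The RIM gene unc-10 was at 11.50 ± 0.18 in DD neurons and 5.10 ± 0.49 in all cells, a difference of 6.40 ± 0.26 (log2, SE), far outside the range of the SNARE fusion genes. Its all-cell mean lay below the median of each all-cell array, so the size of its difference is not exact. The other named active zone genes had 1.14 ± 0.28 (tag-168, now rimb-1, the RIM-binding protein) and 1.11 ± 0.13 (sad-1). The 9 named genes of recycling and vesicle membrane ran from 1.02 to 1.59 with a median of 1.15, near the 1.00 to 1.39 of the SNARE fusion genes. The 17 genes had groups that did not overlap, as did 192 of the 201 named genes, so this goes with the authors' list as a whole.

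**Figure D4:**
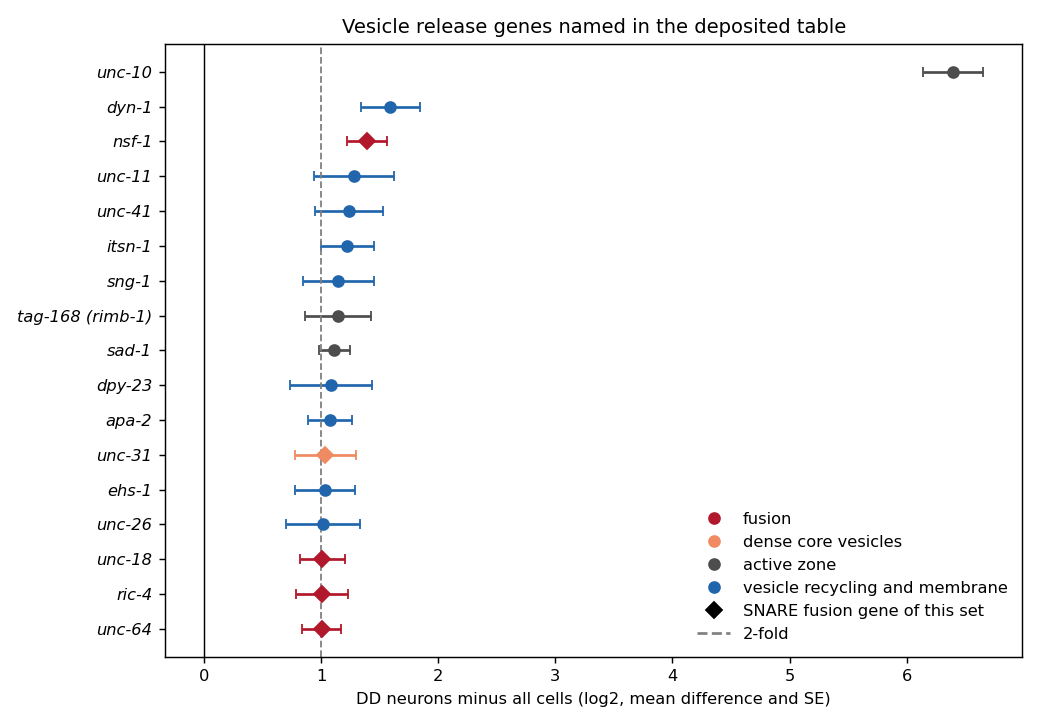
Difference between DD neurons and all cells (log2, mean difference and SE) for the 17 vesicle release genes named in the deposited table, ordered by size and coloured by list, with diamonds for the 5 SNARE fusion genes and a dashed line at 2-fold. The genes crowd between 1.00 and 1.59, with nsf-1 at 1.39, and unc-10 stands apart at 6.40.

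The genes whose profiles came nearest were sought among the 196 other named genes, by the root mean square distance over the 7 arrays after each profile was centred on its own mean. For unc-64 they were hum-2 (a class V type myosin, 0.14 log2 units), mpz-1 (a protein with many PDZ domains, 0.15) and F33G12.3 (0.17), where the median over all 196 was 0.43. For ric-4 they were apa-2 (the alpha subunit of the clathrin adaptor AP2, 0.13), mtm-3 (a myotubularin phosphatase, 0.15) and D2092.1 (now mctp-1, a membrane protein with C2 domains, 0.21), with a median of 0.48. For unc-18 they were hum-2 (0.17), set-26 (0.18) and apa-2 (0.20), with a median of 0.47. So apa-2 was near both ric-4 and unc-18, and hum-2 near both unc-64 and unc-18. For nsf-1 they were mig-13 (a membrane protein of neuronal migration, 0.17), C32D5.3 (now efr-3, 0.20) and the retromer gene vps-35 (0.20), with a median of 0.45. For unc-31 they were uaf-1 (a splicing factor subunit, 0.18), pqn-44 (now tent-5, 0.19) and nsy-1 (a MAP kinase kinase kinase, 0.19), with a median of 0.50. Between the 5 genes themselves the distances ran from 0.20 (unc-18 and ric-4) to 0.43 (unc-31 and unc-18). For each of the 5 genes except ric-4 the 3 nearest genes were all closer than any other of the 5. For unc-18 the margin was slight, with 0.2031 for apa-2 and 0.2036 for ric-4. A search among 196 genes has more chances of a close profile than one among the 5, so this order is a description. The distances also hold the difference between groups by which all these genes were chosen.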

How the data were processed

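The authors deposited log2 values made with RMA, which corrects background, normalizes between arrays and summarises probes, per the submitters' processing notes. Its version is not given in the sources used here. Gene names were supplied by the authors' deposited table, whose log2 difference equals the difference of group means to within 6.7e-15. Its score, fold and q-value columns were not used, and 5 of its rows that hold an ID without values were left out. The 5 names matched the RefSeq table of WBcel235 by sequence name. The genes and lists were chosen with earlier results of these data known. Groups came from the titles. Differences are DD neurons minus all cells, with a standard error (SE) from the pooled spread of 4 and 3 arrays, whose number limits the precision. Counts over all probe sets came from limma 3.58.1 (lmFit and eBayes, R 4.3.3, no covariates), two-sided. Calls were those below 0.05 after Benjamini-Hochberg adjustment over 22548 probe sets. The fit was also run on simulated data, where the condition to meet was on the estimated size of planted changes and not on calls. P-values measure only the spread between these samples, which may be technical. Of several probe sets per gene, 1 was kept, first by a match to a single transcript and then by the highest mean. Named were the 5 genes, the fusion, dense core vesicle and active zone genes of the table, the 3 nearest profiles of each member and 4 identity genes; dyn-1 was added after its value was seen. Alternatives were quantile and median scaling, leaving out each array, the replicate number as a block, group medians, a filter on low values, a variance trend and the controls kept. Centring on the controls was chosen after seeing the data. Planned searches of promoter and protein sequence were not run. Python 3.11.15 with pandas 2.3.3, numpy 2.4.6 and matplotlib 3.10.9 made the other tables and the figures.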

Additional observations from a re-analysis of the deposited data

How the results depend on the processing

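The differences of the 5 SNARE fusion genes kept their direction in all 60 values computed under other settings, and 55 of these moved by less than the spread between replicate arrays. The 5 that moved more were those centred on the array controls, at 1.04 for nsf-1, 0.68 for unc-31, 0.65 for unc-18, 0.65 for ric-4 and 0.65 for unc-64, which by construction lowers every difference by 0.36. With groups apart in all 5 genes, leaving out 1 array or taking medians could not reverse a direction. Leaving out 1 array also moves a group mean by less than the pooled SD, whatever the values. The values with the replicate number as a block equal those without DD neurons replicate 4, so they add nothing separate. These counts therefore do not measure stability. Without 1 array the differences ran from 1.27 to 1.50 for nsf-1, 0.89 to 1.25 for unc-31, 0.91 to 1.19 for unc-18, 0.80 to 1.14 for ric-4 and 0.93 to 1.13 for unc-64. The counts of calls by limma were less stable. Over all probe sets 43 were higher and 51 lower, against 43 and 33 with quantile scaling, 47 and 28 with median centring, 40 and 393 centred on the controls, and 65 and 93 among the 11274 probe sets above the median level, where fewer were tested. Without 1 array they ran from 6 to 23 higher and from 0 to 39 lower, with 1779 lower at an unadjusted p under 0.05 for the 0 without DD neurons replicate 1. Of the 17 named release genes 4 were called higher (dyn-1, nsf-1, sad-1 and unc-10), 2 centred on the controls (dyn-1 and unc-10), and 1, unc-10, without any 1 array. With the replicate number as a block 2 probe sets were higher and 0 lower by limma (2075 lower at an unadjusted p under 0.05), and 1 release gene, unc-10, was called. Deviations of samples with the same number correlated at -0.01, 0.07 and 0.09 over probe sets, and DD replicate 1 correlated best with another number, so the numbers were not taken to pair the samples. Other causes of these changes were not tested. With 1 named probe set per gene, the mean and the dimmest of several probe sets gave no other value. The values carry no detection call, so no level was tested against background.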
